A study of Homo sapiens with 14 samples.

Results

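Called RNA base changes were compared between 3 libraries of 293FT cells given Cas9 and 3 libraries given EGFP, out of 14 libraries in the series. The groups were taken from the treatment labels. The 6 lists held 14457 calls of 7557 distinct changes, 1679, 1547 and 3300 calls in Cas9 replicates 1, 2 and 3 and 2856, 2180 and 2895 in EGFP replicates 1, 2 and 3. 293FT is an established line from human embryonic kidney that expresses large T antigen of SV40. All 6 libraries carry the name hRNF2 in their titles. The cells of all 6 were sorted for the top 15% of fluorescence 40 h after transfection before total RNA was sequenced. The dose, the promoter and the form in which Cas9 or EGFP was delivered, and whether a guide RNA was present, are not stated in the labels. The study as a whole asked about changes made without direction by a guide RNA by a prime editor, and Cas9 and EGFP serve in it as transfected controls that hold no deaminase. Non-transfected 293FT cells, also 3 libraries, are given beside the results where they bear on them. Nothing in the labels says whether the replicates are separate cultures, so p-values reflect only how far these libraries differ, possibly for technical reasons.

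Adenosine-to-inosine (A-to-I) editing is carried out by ADAR enzymes, which bind double-stranded RNA and deaminate adenosine, and inosine is read as guanosine in sequencing. Most human sites lie in Alu repeats, where neighbouring copies in opposite orientation fold into a long hairpin within introns and 3' UTRs. A small number of sites change a codon. Cas9 is an RNA-guided nuclease that cuts DNA, and EGFP is a fluorescent protein. Neither is known to deaminate RNA.

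Sequences around some of the sites named below are shown first, as 21 bases of the spliced transcript 5′ to 3′. They come from GENCODE release 29 (GRCh38), with the edited adenosine at base 11 in capitals. The sites were picked from these same data. None of those called in all 6 libraries passed an adjusted p under 0.05 with limma. The opening set holds exonic sites called in all 6 libraries that stood out between the groups: ZNF121 (chromosome 19, position 9562267, minus strand, 3' UTR), NEAT1 (chromosome 11, position 65442619, plus strand, non-coding exon), SSR3 (chromosome 3, position 156541506, minus strand, 3' UTR) and SPC24 (chromosome 19, position 11147041, minus strand, 3' UTR).
ZNF121: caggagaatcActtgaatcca
NEAT1: atggtggctcAcgcctgaatc
SSR3: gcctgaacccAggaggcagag
SPC24: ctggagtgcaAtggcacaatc
The next set holds coding sites, shown because they change a protein: TDP2 N59D (chromosome 6, position 24666602, minus strand), NUP153 I248V (chromosome 6, position 17675015, minus strand) and SRP9 I64M (chromosome 1, position 225786912, plus strand). Protein positions count from the start of the longest coding transcript.
TDP2: aagggctctgAactcctactt
NUP153: gaattcttcaAtccttaaaac
SRP9: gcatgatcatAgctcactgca
The last set holds 3' UTR sites called in every library of 1 group and in none of the other: PSMB2 (chromosome 1, position 35602769, minus strand) with Cas9, and RIF1 (chromosome 2, position 151478366, plus strand) with EGFP.
PSMB2: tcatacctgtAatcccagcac
RIF1: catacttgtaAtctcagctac

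A-to-I sites made up most calls in both groups, and fewer were called per gigabase (Gb) of mapped bases with Cas9 than with EGFP, without full separation. Mapped bases ran to 7.37, 5.44 and 10.6 Gb in Cas9 replicates 1, 2 and 3, and to 6.87, 7.02 and 7.59 Gb in EGFP replicates 1, 2 and 3. A-to-I sites numbered 1440, 1276 and 2925 with Cas9, which is 195, 235 and 275 per Gb. With EGFP they numbered 2585, 1912 and 2612, or 376, 272 and 344 per Gb. Cas9 replicate 3, the deepest library, lay just above EGFP replicate 2, and the other Cas9 libraries lay below every EGFP library. The group means were 235.0 ± 39.8 and 330.9 ± 53.2 per Gb (SD, n = 3 each). On the log2 scale the difference was -0.49, a Cas9 level of 0.710 times EGFP, with a 90% interval of 0.519 to 1.01 and a two-sided exact permutation p of 0.2 (adjusted p = 0.433 over 13 tests). The smallest p that 3 against 3 libraries allow is 0.1, so no exact test here can pass 0.05. Without scaling to mapped bases the ratio was 0.747 (90% interval 0.489 to 1.53, exact permutation p = 0.4). Non-transfected cells gave 305 ± 6.28 A-to-I sites per Gb (SD, n = 3), between the group means.

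Introns held the widest difference among the regions. Intronic A-to-I sites numbered 248, 295 and 686 with Cas9 and 805, 548 and 808 with EGFP. Per Gb these were 33.7, 54.2 and 64.5 against 117, 78.1 and 106. Every Cas9 library lay below every EGFP library. The Cas9 level was 0.494 times EGFP on the log2 scale (90% interval 0.287 to 0.826, 3 libraries each, exact permutation p = 0.1, adjusted p = 0.433 over 13 tests). Non-transfected cells gave 83.1 ± 0.553 intronic sites per Gb (SD, n = 3), above all 3 Cas9 libraries and inside the EGFP range. The number of intronic sites was added to the comparison after the region shares had been seen.

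Sites in 3' UTRs numbered 969, 784 and 1825 with Cas9 and 1410, 1098 and 1440 with EGFP. Per Gb they overlapped, at 132, 144 and 172 against 205, 156 and 190 (ratio 0.811, 90% interval 0.641 to 1.10, exact permutation p = 0.2). The make-up of the lists therefore differed in opposite directions for introns and 3' UTRs. Introns held 17.2, 23.1 and 23.5% of the A-to-I sites with Cas9 and 31.1, 28.7 and 30.9% with EGFP, a difference of -8.98 percentage points (90% interval -13.9 to -5.21). The 3' UTR share was 67.3, 61.4 and 62.4% with Cas9 and 54.5, 57.4 and 55.1% with EGFP, a difference of 8.01 points (90% interval 4.02 to 12.7). Both shares separated the groups completely (exact permutation p = 0.1 each, adjusted p = 0.433 over 13 tests). The 2 shares are parts of 1 total and are not independent. In non-transfected cells introns held 27.2 ± 0.479% (SD, n = 3), above all Cas9 and below all EGFP libraries, and 3' UTRs held 58.9 ± 1.39%, below all Cas9 and above all EGFP libraries (exact permutation p = 0.1 for each of these comparisons). In these 2 shares Cas9 and EGFP thus lay on opposite sides of cells that received neither. The margin was small for EGFP in 3' UTRs, with 57.43% in EGFP replicate 2 against 57.46% in non-transfected replicate 2. Per Gb, EGFP overlapped non-transfected cells in introns and in 3' UTRs, and Cas9 overlapped them in 3' UTRs.

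Of the smaller regions, intergenic sites also separated the groups, at 17.9, 22.1 and 21.8 per Gb with Cas9 and 31.3, 23.5 and 27.9 per Gb with EGFP (exact permutation p = 0.1, adjusted p = 0.3 over 6 regions). Intergenic means here that no transcript of the GENCODE basic set covered the site on its strand. Sites in exons of non-coding genes lay at 8.66 ± 2.62 against 12.3 ± 2.85 per Gb (SD, n = 3 each) and overlapped. Coding sites lay at 3.61 ± 0.547 against 3.88 ± 0.431 per Gb and overlapped as well, and there were 25, 23 and 34 of them with Cas9 and 30, 26 and 27 with EGFP.

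**Figure D1:**
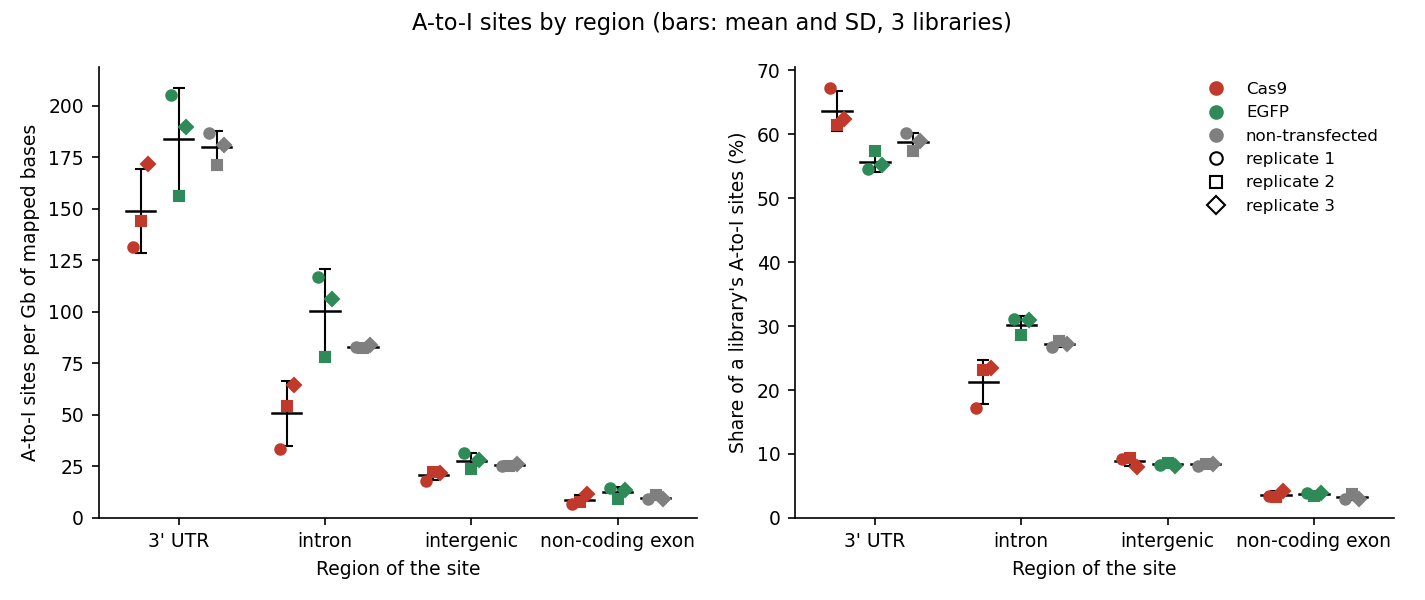
A-to-I sites by region in each Cas9, EGFP and non-transfected library, as sites per Gb of mapped bases (left) and as the share of a library's A-to-I sites in percent (right), with the mean and SD of 3 libraries. The 3 Cas9 libraries lie at 33.7 to 64.5 intronic sites per Gb, below the 78.1 to 117 of the EGFP libraries.

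Site numbers moved with the mapped bases in part. Over the 6 libraries Pearson's r between A-to-I sites and mapped bases was 0.719 (permutation p = 0.0653, adjusted p = 0.138 over 3 relations) and Spearman's rho was 0.771 (permutation p = 0.103). Without the 2 libraries farthest from the median depth, r was -0.069, so the relation rests on Cas9 replicates 2 and 3. The median reads covering an A-to-I site were 26, 18 and 33 with Cas9 and 22, 23 and 23 with EGFP. Mapped bases spread more widely with Cas9, at 7.82 ± 2.63 Gb, than with EGFP, at 7.16 ± 0.381 Gb (SD, n = 3 each), and its part in the difference was not tested.

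Sites were also counted per gene. Of 165 genes with 10 or more distinct A-to-I sites over the 6 libraries, 43 had fewer sites per Gb in every Cas9 than in every EGFP library (26.1%), 4 had more in every Cas9 library (2.42%), and 118 overlapped. These counts are a description only, because the minimum was met over both groups together. Of the 43, 30 had under 10 distinct sites with Cas9 and 5 had none, so that they entered through their EGFP sites. Neighbouring sites of a gene share reads and are not independent, and no test was run per gene.

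Among the genes with the most sites, the mitochondrial carrier gene SLC25A16 had 68 distinct intronic sites, of which 2, 3 and 20 were called with Cas9 and 32, 16 and 33 with EGFP. Its Cas9 libraries lay at 0.901 ± 0.860 sites per Gb and its EGFP libraries at 3.76 ± 1.29 (SD, n = 3 each), without overlap. MBD3, which encodes a subunit of the NuRD chromatin remodelling complex, had 48 intronic sites, 12, 11 and 28 with Cas9 and 23, 19 and 31 with EGFP, also without overlap per Gb. MAVS, the mitochondrial adaptor of RIG-I-like RNA sensing, had 57 sites in its 3' UTR, 7, 16 and 35 with Cas9 and 32, 27 and 27 with EGFP, again without overlap per Gb. ENSA, an inhibitor of protein phosphatase 2A, ran the other way in the means, with 11, 7 and 50 sites against 6, 1 and 15, and its groups overlapped.

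DFFA, the inhibitory subunit of the apoptotic DNA fragmentation factor, had the most distinct sites, 90, most of them in its 3' UTR. Its numbers were 31, 33 and 54 with Cas9 and 43, 32 and 53 with EGFP. The nucleoporin genes NUP155 and NUP43, the ribosome biogenesis gene NOL9, the spliceosome gene SNRPD3 and the connexin gene GJC1 complete the 10 genes with the most sites, and their libraries overlapped between the groups. SNRPD3 and NUP43 had nearly the same means, 3.47 ± 1.14 against 3.43 ± 0.916 and 3.33 ± 0.660 against 3.35 ± 1.34 sites per Gb (SD, n = 3 each).

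Further genes with many intronic sites were chosen for description after their values were seen. DANT2, a long non-coding RNA gene of the X chromosome, had 30 distinct intronic sites, 0 called in each Cas9 library and 14, 19 and 9 with EGFP. FTX, another non-coding gene of the X chromosome, had 3, 0 and 7 intronic sites against 14, 11 and 19. TOP3A, which encodes a DNA topoisomerase, had 7, 0 and 11 intronic sites against 20, 13 and 14. Over all its regions TOP3A had 15, 9 and 21 sites against 23, 14 and 14, and its groups overlapped per Gb. In each of these genes a site missing from a list was unedited, poorly covered or under the limits of the lists, and these cannot be told apart. The genes with more sites per Gb in every Cas9 library were NOM1 (13, 13 and 19 against 11, 5 and 7), POLR1E (11, 7 and 9 against 5, 3 and 3), RPL14 (9, 5 and 8 against 3, 4 and 3) and RBSN (1, 1 and 8 against 0, 0 and 0), and their sites lay mostly in 3' UTRs.

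The lists of the groups overlapped in part. Over the 6 libraries 6389 distinct A-to-I sites were called, 3921 with Cas9 and 4564 with EGFP. The 2096 sites called in both groups were 53.5% of the Cas9 and 45.9% of the EGFP sites, and 3644 sites were called in 1 library of the 6. All 3 Cas9 libraries shared 475 sites, and all 3 EGFP libraries shared 774. The 320 sites called in all 6 libraries were 67.4% of the former and 41.3% of the latter. In introns, all 3 Cas9 libraries shared 64 sites and all 3 EGFP libraries 177.

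Sites called in all libraries of 1 group and in none of the other were 15 of the 475 for Cas9 and 83 of the 774 for EGFP. Of the 15, 12 lay in 3' UTRs and 0 in introns, beside 318 and 64 of the 475. Of the 83, 46 lay in 3' UTRs and 32 in introns, beside 480 and 177 of the 774. With so few intronic sites among the 475, the 0 of 15 says little. Non-transfected cells also had 5 of the 15 and 63 of the 83, and 15 of the 15 and 76 of the 83 were called in some other library of the series. The Cas9 site in PSMB2, a proteasome subunit gene known for its edited inverted repeat, was edited at 35, 50 and 33.3% over 20, 10 and 21 covering reads. A site in the 3' UTR of GPN2 was at 41.2, 31.8 and 42.2%, and 3 sites in the 3' UTR of TOP3A averaged 24.7, 23.2 and 19.1%. The EGFP site in RIF1, which encodes a regulator of double-strand break repair, was at 87.5, 77.8 and 72.2% over 16, 18 and 18 reads. The other EGFP sites with the highest levels lay in an intron of SMPD4 (93.2 ± 7.16%), the 3' UTR of COX18 (66.8 ± 5.73%), an intron of RPL36A (58.5 ± 13.6%) and the 3' UTR of GPATCH2L (53.1 ± 14.9%, SD, n = 3 each). Covering reads were few at these sites in both groups, 12 to 28 at the EGFP sites and 10 to 57 at the Cas9 sites. The reads of libraries without the call are not listed, and their part in the result was not tested.

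At sites called in all 6 libraries the edited fraction, the share of covering reads with the edit, was nearly the same in both groups. The mean over the 320 sites was 25.8, 29.2 and 27.7% with Cas9 and 29.6, 28.3 and 28.6% with EGFP. The groups overlapped, and the difference of the means was -1.30 percentage points (90% interval -3.87 to 0.908, 3 libraries each, exact permutation p = 0.3, adjusted p = 0.557 over 13 tests). Across the 320 sites the group means correlated at r = 0.933, a description of sites that share libraries and neighbouring sequence. Their median absolute difference was 4.25 points, and 48 sites differed by 10 points or more. The fit of log2 odds of editing with limma called 0 of 320 sites at an adjusted p under 0.05 (0%). At an unadjusted p under 0.05 there were 35 sites, 10 higher and 25 lower with Cas9, and a quasi-binomial fit also called 0, with 26 at that unadjusted p. Groups did not overlap at 47 sites (14.7%), of which 17 were higher (5.31%) and 30 lower (9.38%) with Cas9. The median log2 odds ratio was -0.16. Of the 320 sites, 7 were called in no non-transfected library.

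**Figure D2:**
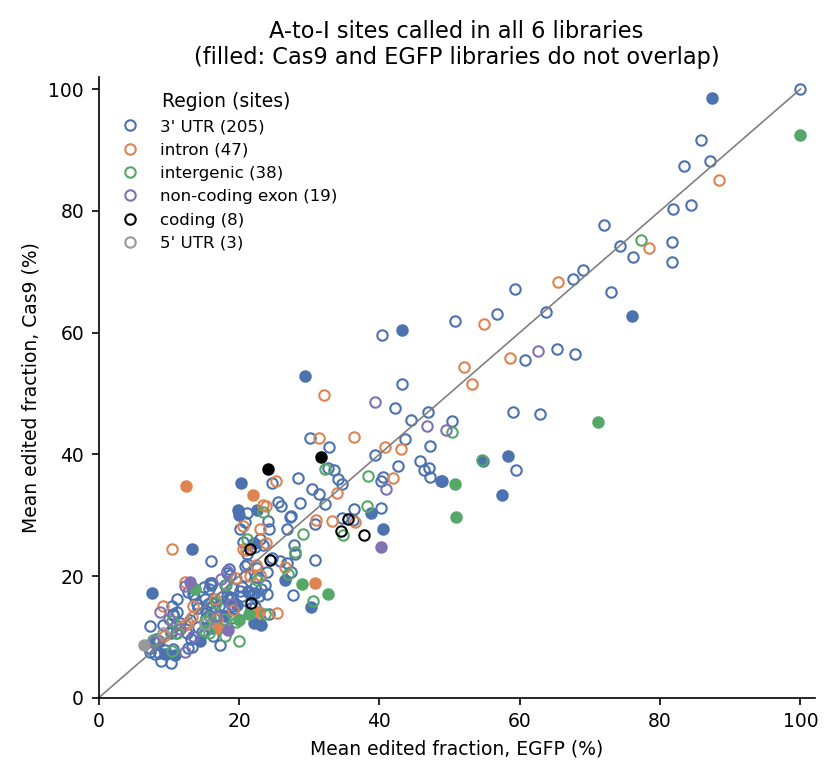
Mean edited fraction in percent at each of the 320 A-to-I sites called in all 6 libraries, EGFP on the horizontal and Cas9 on the vertical axis, coloured by region, with filled points where the Cas9 and EGFP libraries do not overlap. Points follow the diagonal (r = 0.933), and 35 of 38 intergenic sites have a negative log2 odds ratio.

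Regions differed little in level apart from the sites classed as intergenic. That class means outside the basic transcripts on the strand of the site, and some of its clusters lay near the 3' end of a gene. The 205 sites in 3' UTRs averaged 28.1 ± 1.65% with Cas9 and 29.3 ± 0.731% with EGFP, and the 47 intronic sites 30.8 ± 3.39% and 29.4 ± 1.16% (SD, n = 3 each). Introns thus held fewer called sites per Gb with Cas9, while the intronic sites called in every library overlapped in level (exact permutation p = 0.6) and had a median log2 odds ratio of -0.02. These 47 were 73.4% of the intronic sites shared by all Cas9 libraries and 26.6% of those shared by all EGFP libraries. Sites missing from any list do not enter, so this does not show the level of intronic sites as a whole. The 38 intergenic sites averaged 22.8, 25.4 and 24.1% with Cas9 and 28.97, 29.01 and 31.4% with EGFP, without overlap (exact permutation p = 0.1). They had a median log2 odds ratio of -0.45, with 35 sites lower and 3 higher, beside 193 lower and 127 higher of all 320. The regional split was made after the levels were seen.

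The 38 intergenic sites fell into 10 clusters, each of which had a lower Cas9 mean, and 4 of these lay within 5000 bases past the end of an annotated gene on the same strand. The annotated span of a gene can reach past its basic transcripts, and clusters in such a stretch were classed as intergenic too. How many of the 10 lay inside a gene was not counted. The cluster on chromosome 3 from 10152294 to 10153412 began 74 bases past the annotated end of VHL, a tumour suppressor gene. Its 7 sites averaged 17.8, 23.8 and 16.5% with Cas9 and 25.0, 25.3 and 26.6% with EGFP. The cluster on chromosome 17 from 41852185 to 41852216, 1329 bases past the end of KLHL11, averaged 30.4, 22.0 and 30.7% over 2 sites with Cas9 and 45.8, 52.98 and 34.98% with EGFP. A further cluster of 9 sites on chromosome 1 from 109063527 to 109063721 averaged 14.5, 13.3 and 13.8% against 15.2, 18.7 and 19.9%. In these 3 clusters of the 10 every Cas9 library lay below every EGFP library, and in the other 7 the libraries overlapped. Among the 7, the cluster on chromosome 17 from 18272753 to 18272820 lay close to 3' UTR sites of TOP3A on the same strand, at 18274061 and 18274116.

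ZNF121, a zinc finger gene, held the site with the smallest p. It was edited at 11.2, 10.8 and 15.0% with Cas9 and 22.7, 24.1 and 19.5% with EGFP, over 37 to 267 covering reads. The Cas9 libraries all lay below the EGFP libraries, and the site did not pass (log2 odds ratio -0.87 ± 0.21, SE, adjusted p = 0.324 with limma). NEAT1, the nuclear RNA that builds paraspeckles, was edited at position 65442619 at 31.8, 17.6 and 25.0% with Cas9 and 41.0, 39.4 and 40.4% with EGFP, also without overlap (adjusted p = 0.345 with limma). Its site at position 65442678 was also lower without overlap, at 6.67, 13.3 and 13.5% against 14.4, 19.7 and 21.1%. The libraries of its 5 other shared sites overlapped, with Cas9 means higher at 2 and lower at 3.

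The largest differences in percentage points lay at sites with fewer covering reads than the ZNF121 site. The site at position 41852216 of the cluster past KLHL11 averaged 45.3 ± 8.39% with Cas9 and 71.2 ± 9.46% with EGFP. SSR3, a subunit of the translocon-associated complex of the endoplasmic reticulum, had 43.8, 12.5 and 43.9% against 65.1, 58.5 and 48.7%, with Cas9 replicate 2 far below the other libraries. SPC24, a kinetochore gene, ran the other way, with 40.9, 68.8 and 49.1% against 37.5, 26.1 and 24.5%. An intronic site of LONP1, the gene of a mitochondrial protease, was also higher with Cas9, at 44.4, 27.3 and 32.4% against 11.8, 15.4 and 10.0%. Neither group overlapped the other at these 4 sites, and the adjusted p with limma lay at 0.345 for 3 of them and at 0.392 for SSR3. GJC1 (39.7 ± 5.87% against 58.3 ± 14.4%) and ZNF621 (38.9 ± 4.86% against 54.8 ± 6.78%) were lower without overlap. RPL7L1 and HSPD1 had higher Cas9 means with overlapping libraries.

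**Figure D3:**
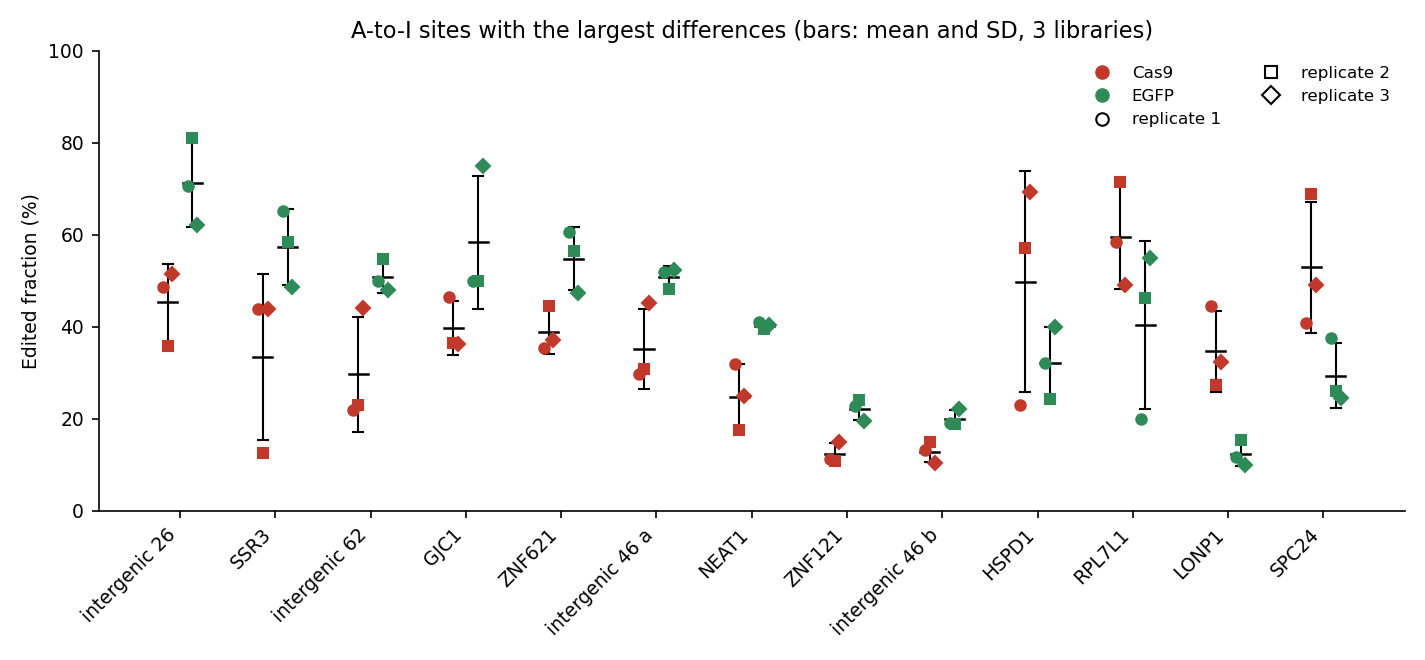
Edited fraction in percent in each library at the shared A-to-I sites with the largest differences between group means and those with the smallest p, ordered by the difference, with the mean and SD of 3 libraries. For ZNF121 the Cas9 libraries lie at 10.8 to 15.0% and the EGFP libraries at 19.5 to 24.1%. None of the sites passed the adjusted threshold.

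The 10 sites with the highest levels, averaged over both groups and below 90%, had overlapping libraries. XPOT, the gene of a transfer RNA exporter, had 91.8, 94.3 and 88.7% with Cas9 and 77.8, 90.4 and 89.5% with EGFP. NUP155 averaged 88.1 ± 4.03% and 87.1 ± 8.76%, and PAICS, a gene of purine synthesis, averaged 80.3 ± 8.40% and 81.9 ± 1.90% (SD, n = 3 each). DCAF16 lay lower with Cas9, at 71.5 ± 9.90% against 81.8 ± 7.98%, as did GATC, at 74.9 ± 9.14% against 81.7 ± 2.84%. PRKCSH, SGTB, HP1BP3, BPNT1 and an intergenic site on chromosome 2 complete the 10.

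Coding sites called in at least 4 of the 6 libraries showed both directions. TDP2, which removes topoisomerase adducts from DNA ends, was edited at N59D at 41.3, 42 and 35.4% with Cas9 and 32.6, 33.3 and 29.03% with EGFP, over 50 to 113 reads, without overlap. The synonymous site T773T of TAF2, a subunit of the general transcription factor TFIID, lay at 44.3, 35.2 and 33.3% against 19.7, 32.9 and 19.6%, also without overlap. NUP153 I248V, in a nucleoporin, lay at 31.6, 26.8 and 29.8% against 39.8, 36.5 and 30.1%, with Cas9 replicate 1 above EGFP replicate 3. SRP9 I64M, in a protein of the signal recognition particle, lay at 20, 33.3 and 28.9% against 30, 35.6 and 37.9% and overlapped. ZNF140 Q264Q averaged 26.7 ± 9.80% and 37.8 ± 8.37%, ZNF331 R110R 22.6 ± 2.27% and 24.4 ± 4.58%, and NUP210 I608V 24.5 ± 12.7% and 21.5 ± 9.88% (SD, n = 3 each). MED21 was called at E143G and E143E in Cas9 replicates 1 and 3 and EGFP replicates 1 and 3. None of those called in all 6 libraries passed the fit across shared sites, and the set was chosen after the lists had been seen.

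Known recoding targets of ADAR were sparse in these lists. Of 33 genes, 5 had an A-to-I site in any of the 6 libraries, and together they had 8, 7 and 17 sites with Cas9 and 23, 15 and 21 with EGFP. Per Gb the Cas9 libraries lay below the EGFP libraries, at 1.32 ± 0.258 against 2.75 ± 0.606 (SD, n = 3 each, exact permutation p = 0.1, adjusted p = 0.2 over 8 lists). Most of these sites were in SRP9 (5, 6 and 9 against 13, 11 and 7) and in NEIL1, a DNA glycosylase gene (3, 1 and 5 against 10, 3 and 11), whose sites listed here were intronic. The 18 distinct sites of SRP9 over the 6 libraries also lay mainly in introns, though its calls in single libraries did not always. These numbers are therefore not numbers of recoding sites. Sites Y2C and Q5R of BLCAP were called in EGFP replicate 3 only of the 6, at 26.9% and 15.4% over 26 reads. MFN1, a mitochondrial fusion gene, had 3' UTR sites in Cas9 replicate 3 and EGFP replicate 3.

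Genes known for edited inverted repeats in their 3' UTRs gave 58, 53 and 99 A-to-I sites with Cas9 and 98, 98 and 96 with EGFP over 11 of 15 genes, or 8.97 ± 0.979 against 13.6 ± 0.860 per Gb, without overlap. Their 18 shared sites were lower with Cas9 at 16 and higher at 2, with a median log2 odds ratio of -0.32 beside -0.16 over all 320 sites. ADAR and genes of double-stranded RNA binding gave 4.81 ± 1.34 against 7.63 ± 1.35 sites per Gb (SD, n = 3 each), without overlap, and 9 of their 10 shared sites were lower. Of these 10, 8 lie in EIF2AK2 (7 lower) and 2 in MAVS, and all 10 are also among the 18. EIF2AK2, which encodes the double-stranded RNA sensor PKR and stands on both lists and on that of interferon response, had 18, 17 and 15 sites against 17, 22 and 19. For both lists the exact permutation test gave p = 0.1, or 0.2 after adjustment over 8 lists. All A-to-I sites together lay at 0.710 times EGFP, so the lists ran in the direction of the whole.

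Lists chosen for the effects that a DNA nuclease is known for held few sites. Targets of p53, the tumour suppressor that responds to DNA breaks and is bound by large T antigen, had 0 A-to-I sites in each Cas9 library and 3, 1 and 9 with EGFP, nearly all in MDM2 (exact permutation p = 0.1, adjusted p = 0.2 over 8 lists). Only 2 of the 24 genes had an A-to-I site, and those of MDM2 lay mainly in introns, where sites were fewer with Cas9 as a whole. Genes of double-strand break repair had 18, 4 and 19 sites with Cas9 and 20, 16 and 26 with EGFP (exact permutation p = 0.2), led by RIF1 (7, 2 and 5 against 14, 5 and 14), MRE11 (4, 0 and 5 against 2, 1 and 2) and CHEK1 (2, 1 and 1 against 0, 4 and 1). The interferon response list had 18, 17 and 15 against 19, 22 and 20 sites (exact permutation p = 0.4). Polycomb genes had 1 A-to-I site, in CBX6 in Cas9 replicate 3, and RNF2, the gene in the titles, had no called site in any of the 6 libraries. A list of sites is no measure of expression, and the markers looked up for this line and for blood cells, fibroblasts and adult kidney epithelium had no called site in the 6 libraries, so the cell type could not be checked here.

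Reads covering a site give a partial view of the level of its RNA. One site per gene or cluster was taken among all sites, of any change, called in all 6 libraries, which gave 146 loci. The counts of covering reads were compared with edgeR, scaled to mapped bases, and 8 of 146 passed an adjusted p under 0.05 (5.48%), 2 higher (1.37%) and 6 lower (4.11%) with Cas9. Fewer cells with an RNA and less of it per cell cannot be told apart in bulk samples. Groups did not overlap at 40 loci (27.4%), 16 higher and 24 lower.

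NEAT1 had 3.80, 6.07 and 9.497 covering reads per Gb with Cas9 and 15.7, 14.8 and 16.3 with EGFP at its site at position 65440055. All Cas9 libraries lay well below the EGFP libraries, and the log2 fold change was -1.25 ± 0.29 (SE, adjusted p = 0.0138 with edgeR). Over its 7 shared sites the geometric mean was 4.14, 4.74 and 8.31 against 15.3, 10.6 and 13.7 reads per Gb. The 12 other shared sites in non-coding exons also lay lower without overlap, at 6.36 ± 0.791 against 8.70 ± 0.586 (SD, n = 3 each, exact permutation p = 0.1). By contrast the shared 3' UTR sites lay at 5.48 ± 0.723 against 5.97 ± 0.225, the intronic at 3.98 ± 0.575 against 4.71 ± 0.262, and the coding at 8.39 ± 0.0860 against 7.97 ± 0.712 reads per Gb, all with overlap between the groups.

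One of the 6 lower loci is not reported here. The remaining 4 that fell were ZNF397, a zinc finger gene (1.90 ± 0.259 against 4.04 ± 0.541 reads per Gb), an intronic site of MBD3 (3.91 ± 2.19 against 9.81 ± 2.35), an intronic site of EIF2S3, a translation initiation factor gene (8.36 ± 2.76 against 16.4 ± 3.35), and PPIA, the cyclophilin A gene (5.34 ± 1.03 against 9.86 ± 1.26, SD, n = 3 each). Their adjusted p with edgeR was 0.0138, 0.0373, 0.0422 and 0.0494. PPIA and EIF2S3 did not pass with TMM scaling or with DESeq2, and ZNF397 did not pass with DESeq2. The loci that rose were DFFA, at 19.8, 21.3 and 24.0 with Cas9 and 11.2, 13.96 and 11.2 with EGFP (log2 fold change 0.84 ± 0.23, SE, adjusted p = 0.0392 with edgeR), and WDR73, a WD repeat gene, at 6.65, 9.56 and 10.2 against 4.66, 3.13 and 4.22 (log2 fold change 1.14 ± 0.29, SE, adjusted p = 0.0249). Thus DFFA had more covering reads with Cas9 while its number of A-to-I sites overlapped between the groups. Over 5 other settings of the fit, with edgeR or DESeq2, the highest adjusted p was 0.0957 for DFFA and 0.0338 for WDR73. DFFA therefore did not pass in all of these settings either. The calls were not stable to single libraries: without Cas9 replicate 2, or without EGFP replicate 1, 0 of the loci passed (22 and 15 at an unadjusted p under 0.05), while 5 passed without Cas9 replicate 1, 12 without Cas9 replicate 3 and 3 without EGFP replicate 3. DESeq2 called 5 of the 146.

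**Figure D4:**
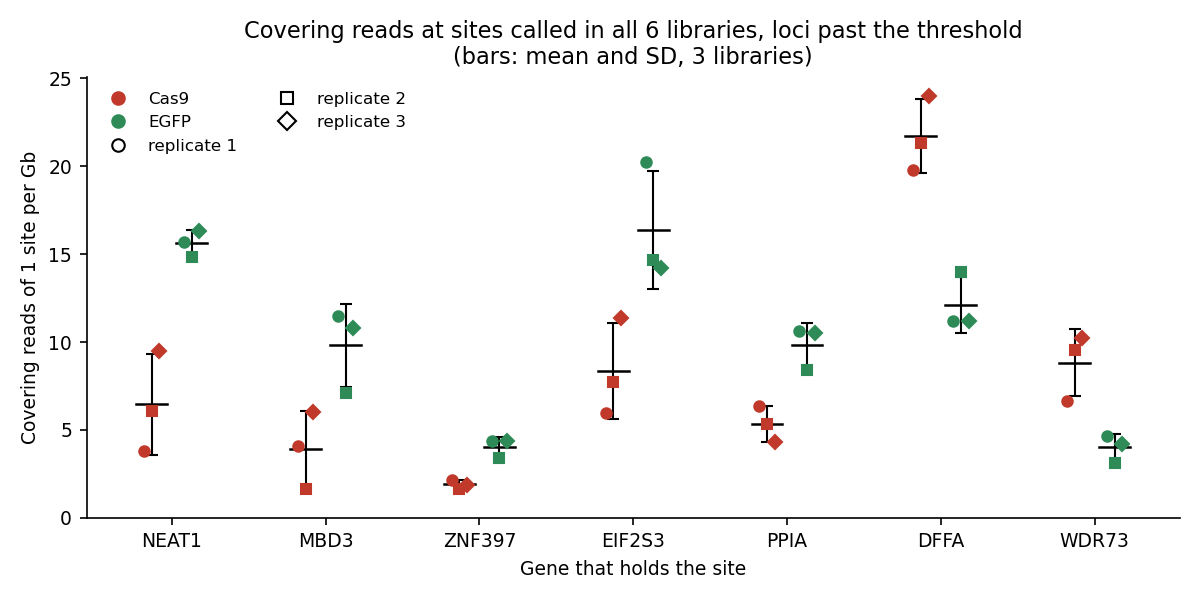
Reads covering 1 site per gene, per Gb of mapped bases, in each library at 7 of the 8 loci past the adjusted threshold in edgeR, with the mean and SD of 3 libraries. NEAT1 lies at 3.80 to 9.497 with Cas9 and 14.8 to 16.3 with EGFP, and DFFA at 19.8 to 24.0 and 11.2 to 13.96.

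Changes other than A-to-I were as frequent with Cas9 as with EGFP within the spread of the libraries. They numbered 239, 271 and 375 with Cas9 and 271, 268 and 283 with EGFP, or 32.4, 49.8 and 35.3 against 39.4, 38.2 and 37.3 per Gb. The Cas9 libraries enclosed the EGFP libraries, with a ratio of 1.00 (90% interval 0.822 to 1.34, exact permutation p = 1). C-to-U changes, the product of cytidine deaminases, numbered 44, 45 and 53 against 45, 45 and 49, a ratio of 0.968 per Gb (90% interval 0.758 to 1.29, exact permutation p = 0.7). Non-transfected cells gave 38.8 ± 2.10 other changes per Gb (SD, n = 3). No single change separated the groups per Gb.

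T-to-C changes were the most variable, at 50, 70 and 166 with Cas9 and 86, 86 and 97 with EGFP. Of the 166 in Cas9 replicate 3, 109 were intronic and 107 lay within 100 bases of another T-to-C site, against 11 and 27 such neighbours in the other Cas9 libraries and 33, 34 and 44 with EGFP. The introns with most of them were in ZNF814 (0, 1 and 13 against 5, 3 and 9), INTS11 (3, 5 and 13 against 1, 4 and 1) and REEP5 (0, 4 and 14 against 0, 0 and 0), chosen here after their values were seen. The T-to-C sites that had no such neighbour numbered 39, 43 and 59 against 53, 52 and 53.

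**Figure D5:**
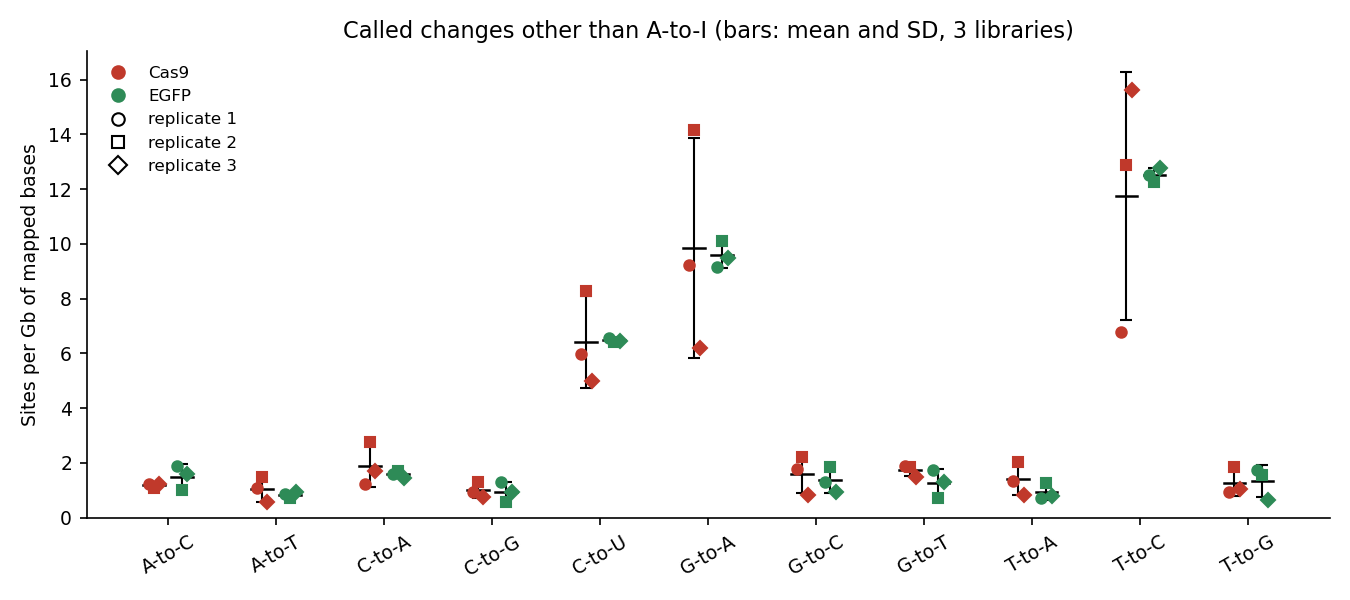
Called changes other than A-to-I in each Cas9 and EGFP library, as sites per Gb of mapped bases, with the mean and SD of 3 libraries. T-to-C changes spread from 6.79 to 15.6 per Gb with Cas9 and from 12.3 to 12.8 with EGFP.

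In coding sequence the other changes numbered 103, 117 and 106 with Cas9 and 93, 83 and 96 with EGFP, without overlap (exact permutation p = 0.1, adjusted p = 0.6 over 6 regions), while per Gb they overlapped, at 13.98, 21.5 and 9.97 against 13.5, 11.8 and 12.6. In 5' UTRs the other changes lay the other way, at 0.543, 1.10 and 0.752 per Gb with Cas9 and 1.16, 1.42 and 1.45 with EGFP, without overlap (exact permutation p = 0.1, adjusted p = 0.6 over 6 regions). Most of the coding ones were called in 1 library only, 66, 80 and 64 with Cas9 and 53, 52 and 58 with EGFP, and 18 were called in all 6. Of 1168 distinct other changes, 37 were called in all 6 libraries, 1 in all Cas9 and no EGFP library, and 7 in all EGFP and no Cas9 library. The Cas9 one was a G-to-T change in an intron of AC108488.2 at 19.0, 11.8 and 6.25%. Of the EGFP ones, a G-to-A change in the 5' UTR of SLC33A1 was at 42.9, 20 and 37.5% and was called in all 3 non-transfected libraries too.

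The median level over a whole list overlapped between the groups. The median edited fraction of the A-to-I list was 12.5, 16.7 and 11.1% with Cas9 and 15.0, 14.3 and 13.6% with EGFP (exact permutation p = 0.6). By region, the median of the coding A-to-I sites alone separated the groups, at 15.2, 16.7 and 12.6% with Cas9 and 11.8, 11.1 and 12.5% with EGFP (exact permutation p = 0.1, adjusted p = 0.6 over 6 regions). That of the other changes averaged 12.04 ± 2.63% and 12.8 ± 0.481% (SD, n = 3 each, exact permutation p = 0.8). A-to-I calls were 85.6 ± 3.08% of all calls with Cas9 and 89.5 ± 1.54% with EGFP, with overlap (SD, n = 3 each, exact permutation p = 0.2). Of exonic A-to-I sites, 5.57 ± 0.113% with Cas9 and 5.92 ± 0.653% with EGFP followed a G, the base that ADAR enzymes disfavour there, and 44.7 ± 0.837% and 45.4 ± 2.05% preceded a G, the base they favour. A share of 80.7 ± 4.30% and 81.6 ± 2.35% of A-to-I sites lay within 100 bases of another (SD, n = 3 each).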

How the data were processed

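Libraries were grouped by treatment label and numbered by title. Per the labels' protocols, libraries were stranded, made after removal of ribosomal and globin RNA, and sequenced from both ends over 150 bases. The submitters' processing notes name BWA 0.7.17 and, as builds, hg38 and GRCh38; the site caller was not given in the sources used here. Deposited by the authors was 1 list of called sites per library, holding read counts per base, fractions of covering reads and a signal (site depth over a constant per library), here read as mapped bases in Gb, an inference from the values. No listed site had under 2 mutated reads, an edited fraction under 5.04% or a depth under 3.01 reads per Gb, so a missing site is not a level of 0, and the depth limit scaled with the library. Depth is listed apart from the covering reads compared above. Those lay under 3.01 per Gb at some loci, such as ZNF397 with Cas9 (1.90 ± 0.259, SD, n = 3).

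Strand was recovered from the base columns: 17541 of 17541 exonic sites had the reference base of GENCODE 29, and 93.09% of the distinct changes of the 6 lists lay on the strand of a gene. Regions came from the basic transcripts, and a site that none of them covered on its strand was classed as intergenic. Values per library were compared by two-sided exact permutation tests over 20 assignments (site numbers as log2), with Benjamini-Hochberg adjustment, and the 90% intervals hold the shifts not rejected. Edited fractions were fitted with limma 3.58.1 on log2((mutated + 0.5)/(unmutated + 0.5)) with binomial precision weights, covering reads with edgeR 4.0.16 quasi-likelihood, both tested on simulated data, in R 4.3.3. Intergenic sites within 5000 bases were joined as 1 cluster, a choice made after the data were seen. Sites in 1 transcript share reads. Named genes were the shared sites with the highest level below 90% and the largest differences, 10 of each, the 10 genes with the most A-to-I sites, up to 3 genes per list, all recoding targets with a site, up to 5 sites private to a group, loci past the threshold, and RNF2. The ZNF121 site, the NEAT1 sites, the intergenic clusters, the coding sites and the summaries by region and by gene were added after their values were seen. Not every gene named by this rule is reported here. Members and lists were chosen with earlier results of these data known.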

Additional observations from a re-analysis of the deposited data

How the results depend on the processing

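Of 200 alternatives to 14 values per library (stricter limits on reads, fraction or mutated reads, leaving out highly edited, non-transfected or mitochondrial sites, a replicate block and each library left out), 181 kept their direction and 19 reversed it. A-to-I sites per Gb, intronic and 3' UTR sites per Gb and the region shares reversed under none of them, and intronic sites per Gb ranged from -1.18 to -0.85 on the log2 scale (-1.21 to -0.75 with 1 library left out). The cause of each reversal was not tested. C-to-U sites per Gb became 1.06 with at least 50 covering reads, 0.039 with 5 mutated reads and 0.10 without sites of non-transfected cells. Other changes per Gb became -0.14 with a fraction of at least 10%, -0.0094 with 5 mutated reads and -0.11 with the same minimum of mutated reads per Gb, and unscaled -0.071 and -0.031 under the first and last. The median level of other changes became 0.64, 0.73, 0.95 and 0.39 points with 50 covering reads, 10%, the same minimum per Gb and without non-transfected sites. With 1 library left out, other changes per Gb ran from -0.18 to 0.13, unscaled from -0.11 to 0.22, C-to-U sites from -0.25 to 0.12, and the medians from -2.50 to 0.28 (A-to-I) and -2.22 to 0.28 points. The relation to mapped bases gave r = -0.069 without 2 libraries. Shared sites past the threshold numbered 1 with at least 50 covering reads and 0 to 1 with 1 library left out. Loci past the threshold in covering reads numbered 5 with DESeq2 1.42.0, 6 with TMM scaling, 11 with the replicate block and 0 to 12 with 1 library left out. Of 75 alternatives for the 7 named loci, 35 did not pass the threshold and 40 did, all in the main direction. Among 23 named levels, 8 of 283 alternatives reversed, all at sites whose libraries overlap: NUP155 became -0.030 with the replicate block, and with 1 library left out NUP155 ran from -0.68 to 0.76, HP1BP3 from -0.99 to 0.41, PAICS from -0.49 to 0.31, SGTB from -0.63 to 0.18 (0.0061 without EGFP replicate 2), PRKCSH from -1.25 to 0.39 and BPNT1 from -0.087 to 1.17. Same-numbered libraries deviated together at r from -0.044 to 0.051 in edited fraction over shared sites. In covering reads r was -0.29, 0.11 and 0.28 for replicates 1, 2 and 3, within the -0.46 to 0.35 of differently numbered libraries. The numbers were not taken as pairs. The replicate block changed no call of a value per library, since 3 pairs cannot give an exact p under 0.25.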
